A study of Mus musculus with 71 samples.

Results

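Gdf9, Bmp6 and Fgf8 encode growth factors that the mouse oocyte secretes, and they were picked by symbol from the deposited expression table, where all 3 were found among the 15140 genes used. Their mRNA was measured by polyA-selected, directional RNA sequencing in 68 libraries of 33 groups, given in TPM, a share of each library's transcripts that is corrected for transcript length. The in vitro oocytes carried the Blimp1-Venus and Stella-CFP reporters on a C57BL/6 X 129 background, were grown from embryonic stem cells via primordial germ cell-like cells in culture with somatic cells of fetal female gonads, and were sorted by the Stella-CFP signal on day 11 or day 13. They comprised knockouts of Lhx8, Figla, Stat3 and Sub1 taken on day 11, knockouts of Hes6, Tbpl2, Thap7, Ybx3, Ell3, Foxr1, Mef2b, Ccnk, Sfr1, Tcf25, Kdm1b, Nobox, Noto, Dynll1 and Sohlh1 taken on day 13, and wild type of both days. Directly induced oocyte-like cells (DIOLs) came from a C57BL/6 X 129 stem cell line of genotype MGA8 held in 0.5 µM Shield1, a compound that stabilises proteins tagged with a destabilising domain. Those labelled DIOLs.S were taken on days 1, 3, 5, 7 and 14 and those labelled DIOLs on days 5, 10, 15 and 25; what the S stands for is not given in the sources used here. MII DIOLs had been grown with somatic cells of fetal gonads and matured to metaphase II, and per the labels their follicles first received GDF9 protein at 15 ng per ml and BMP15. Germinal vesicle (GV) oocytes labelled comp-GV and incomp-GV, read here as competent and incompetent to resume meiosis, came from animals of the same strain and reporter genotype as the in vitro oocytes. Their column names carry 3w for comp-GV and 2w for incomp-GV, read here as ages of 3 and 2 weeks, so age and competence cannot be told apart between them. Each group had 2 libraries, except 3 each for both kinds of GV oocyte. The knockouts were made in cultured cells, and the labels do not say how many clones each represents, nor which genes MGA8 cells were induced with.

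GDF9 and BMP6 belong to the TGF-β superfamily. They bind pairs of serine-threonine kinase receptors on the granulosa cells around the oocyte, which then phosphorylate Smad proteins: GDF9 acts through BMPR2 with a type I receptor that signals to SMAD2 and SMAD3, and BMP6 through receptors that signal to SMAD1, SMAD5 and SMAD9. FGF8 binds FGF receptor tyrosine kinases, and in mouse follicles oocyte FGF8 and BMP15 together raise glycolysis in cumulus cells. Loss of Gdf9 in mice stops follicles at the primary stage.

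In GENCODE M21 (GRCm38, the same assembly as the mm10 build of the submitters' processing notes) Gdf9 lies on the plus strand at chr11:53431023-53437904. Bmp6 lies on the plus strand at chr13:38345107-38500302 and Fgf8 on the minus strand at chr19:45736798-45742915. Bmp6 overlaps Txndc5, which is read from the opposite strand, by 224 bases at its end, and 4930579J19Rik, which was listed at 0 in every library used. Whether reads were counted by strand is not given in the sources used here, so some Bmp6 and Txndc5 reads may not be told apart. Txndc5 averaged 54.7 ± 11.5 TPM in Nobox knockout oocytes and 169 ± 6.69 TPM in wild type of day 13 (SD, n = 2 each). FIGLA and SOHLH1 are basic helix-loop-helix proteins of a class that binds CANNTG (the E-box). Bmp6 fell in knockouts of both, and in others. Gdf9 and Fgf8 had no entry among the RefSeq promoters used, so only the Bmp6 promoter is shown. It spans 250 bases before to 50 after the RefSeq start (GRCm38.p6, chr13:38345466-38345765, plus strand), and capitals mark the CANNTG matches. GENCODE places the start of Bmp6 further upstream, at 38345107, so the whole window lies inside the GENCODE gene. Positions below count from the RefSeq start.
Bmp6: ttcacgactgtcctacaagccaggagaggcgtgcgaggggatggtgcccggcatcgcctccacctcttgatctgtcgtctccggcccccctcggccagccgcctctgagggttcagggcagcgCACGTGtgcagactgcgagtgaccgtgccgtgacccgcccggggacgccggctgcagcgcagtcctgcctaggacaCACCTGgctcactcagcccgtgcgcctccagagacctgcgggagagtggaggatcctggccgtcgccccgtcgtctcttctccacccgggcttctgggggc
The matches begin at bases -127 and -51 from that start. At least 1 CANNTG, which reads the same on both strands in this form, occurs in 72.3% of the 32851 RefSeq promoters of the same length. TAATTG and TAATTA, core forms bound by homeodomain proteins such as NOBOX and LHX8, and TATAAA were searched on both strands and are not in this window. They occur in 8.0%, 5.29% and 13.6% of promoters.

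The values carry no record of depth, and between 8011 and 10596 genes reached 1 TPM in a library. Replicates correlated with r between 0.967 and 0.997 over genes in all groups but the Sohlh1 knockout, whose 2 libraries stood apart (r = 0.873). Of 19 targeted genes 12 were among the genes used. The libraries labelled Ccnk knockout held 171 ± 10.5 TPM of Ccnk against 168 ± 5.64 TPM in wild type, and those labelled Sub1 knockout held 330.2 ± 20.4 TPM of Sub1 against 464 ± 23.5 TPM in wild type (SD, n = 2 each). In their own knockouts the log2 change was -0.75 for Thap7, -0.92 for Sfr1, -1.535 for Ell3, -1.551 for Hes6 and -1.69 for Tbpl2. It was -2.145 for Stat3, -2.35 for Kdm1b, -2.82 for Lhx8, -4.11 for Dynll1 and -8.52 for Sohlh1. Transcript levels do not show how much protein was left. The libraries were described by 8 measured oocyte markers (Zp1, Zp3, Padi6, Npm2, Oosp1, Zar1, Ddx4 and Kit), which cannot check the sort apart from oocyte stage. Their summed level was 57020 to 58380 TPM in wild type of day 13 and 8130 to 8432 TPM in wild type of day 11. In bulk samples, fewer oocytes and less RNA per oocyte cannot be told apart.

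All 3 growth factor mRNAs rose between the wild-type days. Gdf9 had 1976 and 1897 TPM on day 13, against 400.25 and 448 TPM on day 11. Its log2 change was 2.19 ± 0.35 (SE) with an adjusted p of 1.3e-05 by limma. Bmp6 had 53.0 and 59.4 TPM on day 13, against 13.6 and 24.1 TPM on day 11. Neither factor overlapped between the days, and the wider spread on day 11 was in Bmp6, whose log2 change of 1.58 ± 0.43 had an adjusted p of 0.0042. Without the first day 11 library the Bmp6 change was 1.19 and no longer passed (adjusted p = 0.077). Fgf8 had 41.8 and 37.0 TPM on day 13, against 6.22 and 5.36 TPM on day 11. Its log2 change of 2.57 ± 0.64 had an adjusted p of 0.0020, and with 0.1 added to TPM in place of 1 it no longer passed (2.75, adjusted p = 0.11). The call rule asked for both an adjusted p below 0.05 and a log2 change of 1 or more in size; under it 3 of 3 factors were called higher, beside 5.5% of the 12306 genes tested. The median change over all genes tested was -0.24. Summed granulosa markers, which stand for the somatic cells that receive these factors, were 29.9 to 33.3 TPM on day 13 and 859 to 903 TPM on day 11. Their part in the result was not tested.

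**Figure D1:**
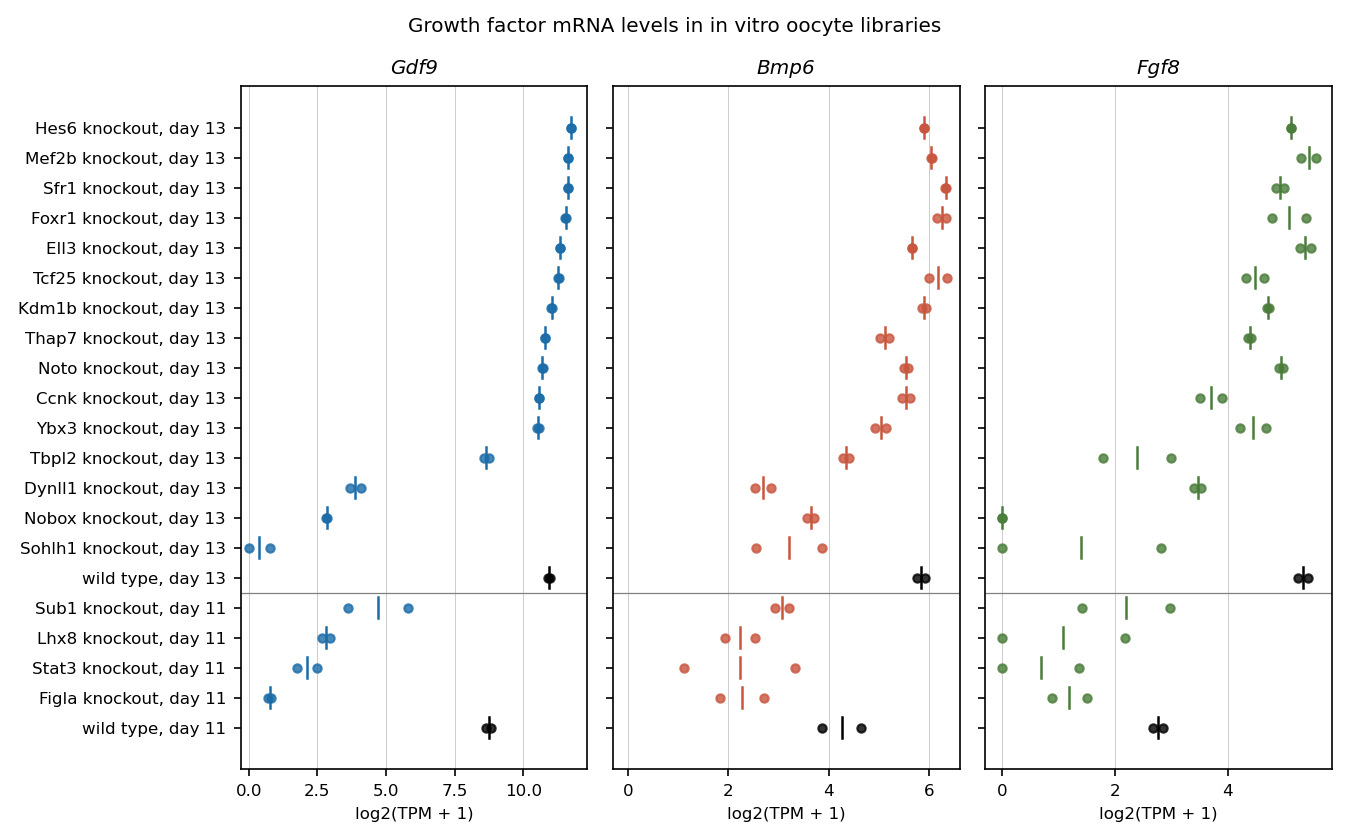
Level of each growth factor mRNA as log2(TPM + 1) in each of 42 in vitro oocyte libraries (points, 2 per group, with the group mean as a bar), knockouts in colour above the wild type of the same day in black. Gdf9 is near 0 in the Sohlh1 and Figla knockouts and between 1453 and 3431 TPM in the 11 knockouts at the top.

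Gdf9 fell in 8 of 19 knockouts. Genes called lower made up 13.4% of those tested in the Sohlh1, 8.5% in the Nobox, 10.4% in the Dynll1, 6.35% in the Tbpl2, 9.52% in the Figla, 9.47% in the Lhx8, 11.5% in the Stat3 and 9.26% in the Sub1 knockout. The Sohlh1 knockout, which lacks a helix-loop-helix factor of early oocytes, was listed at 0.70 and 0 TPM. Same-day wild type had 1976 and 1897 TPM, and the adjusted p was 1.5e-18. In Figla knockout oocytes, which lack the helix-loop-helix activator of zona genes, Gdf9 stood at 0.76 and 0.62 TPM, against 400.25 and 448 TPM in wild type of day 11 (log2 change -7.97 ± 0.35, adjusted p = 6.1e-16). Both knockouts therefore held Gdf9 below 1 TPM in every library. Loss of Nobox, a homeobox factor known to bind the Gdf9 promoter in mice, left 6.13 and 6.11 TPM, against 1976 and 1897 TPM in wild type (log2 change -8.09 ± 0.35, adjusted p = 2.7e-16). Dynll1 knockout oocytes, which lack a dynein light chain, had 15.8 and 11.7 TPM, against the same wild-type values (log2 change -7.05 ± 0.35, adjusted p = 2.8e-15). These 4 knockouts held under 1 percent of the wild-type level in each library, and none of their libraries approached wild type.

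The other 3 day 11 knockouts held more Gdf9 mRNA than the Figla knockout in every library. Stat3 knockout oocytes, which lack a transcription factor activated by cytokine receptors, had 4.53 and 2.37 TPM, against 400.25 and 448 TPM in wild type (log2 change -6.62 ± 0.35, adjusted p = 1.6e-14). Lhx8 knockout oocytes, which lack a LIM homeobox factor, had 5.41 and 6.70 TPM, against the same wild type (log2 change -5.92 ± 0.35, adjusted p = 2.3e-13). The libraries labelled Sub1 knockout, for a coactivator of RNA polymerase II, had 54.1 and 11.4 TPM of Gdf9 (log2 change -4.02 ± 0.35, adjusted p = 6.7e-10). The 2 values lay apart from each other, and both were far under wild type. Tbpl2 encodes the TATA-binding protein relative that takes over in growing oocytes. Its knockout had 379 and 423 TPM, against 1976 and 1897 TPM in wild type of day 13 (log2 change -2.27 ± 0.35, adjusted p = 5.7e-06). That is the smallest called fall, and its libraries overlapped wild type of day 11 in level.

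Bmp6 fell in the same 8 knockouts, with a smaller log2 change than Gdf9 in each, a difference that was not tested. Wild type held less Bmp6 than Gdf9 on both days. With 1 added to TPM, a lower starting level limits how far a fall can reach. Dynll1 knockout oocytes had 6.23 and 4.77 TPM, against 53.0 and 59.4 TPM in wild type of day 13. The log2 change was -3.14 ± 0.43 (adjusted p = 4.7e-07), and no other knockout lay lower against its wild type. The Sohlh1 knockout had 13.6 and 4.89 TPM (log2 change -2.62 ± 0.43, adjusted p = 1.0e-05) and the Nobox knockout 10.8 and 12.2 TPM (log2 change -2.20 ± 0.43, adjusted p = 9.3e-05), against the same wild type. In the Tbpl2 knockout 18.4 and 20.2 TPM were left (log2 change -1.49 ± 0.43, adjusted p = 0.0053). Unlike Gdf9, Bmp6 stayed above 1 TPM in every library. On day 11, wild type had 13.6 and 24.1 TPM. The Lhx8 knockout had 2.85 and 4.82 TPM and the Figla knockout 2.57 and 5.54 TPM, with log2 changes of -2.02 ± 0.43 and -1.99 ± 0.43 (adjusted p = 0.00042 and 0.00041). The Stat3 knockout had 1.18 and 9.07 TPM (log2 change -2.03 ± 0.43, adjusted p = 0.00031), and without its first library the change was -0.93 and no longer called. The libraries labelled Sub1 knockout had 8.27 and 6.68 TPM (log2 change -1.18 ± 0.43, adjusted p = 0.029). That call was lost with 0.1 added to TPM (adjusted p = 0.057), without either Sub1 library or without the second wild-type library, when the changes were -1.32, -1.05 and -0.79. All 4 day 11 groups lay under both wild-type libraries.

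Fgf8 fell in 7 of 19 knockouts, which were the Gdf9 set without Sub1; with 0.1 added to TPM in place of 1 it was called in 3, the calls of Dynll1, Figla, Lhx8 and Tbpl2 being lost. It was listed at 0 in both Nobox knockout libraries, against 41.8 and 37.0 TPM in wild type of day 13 (adjusted p = 8.9e-08). The Sohlh1 knockout had 6.02 and 0 TPM (adjusted p = 9.9e-06) and the Tbpl2 knockout 6.96 and 2.47 TPM (log2 change -2.94 ± 0.64, adjusted p = 0.00044). Fgf8 is the only one of the 3 factors with no signal at all in a whole group. The Dynll1 knockout, by contrast, kept 9.61 and 10.6 TPM of Fgf8 (log2 change -1.87 ± 0.64, adjusted p = 0.013). Wild type of day 11 had 6.22 and 5.36 TPM, so the falls on that day were measured from a low level. The Stat3 knockout had 1.58 and 0 TPM (adjusted p = 0.0094), the Lhx8 knockout 0 and 3.52 TPM (adjusted p = 0.040) and the Figla knockout 1.83 and 0.84 TPM (adjusted p = 0.046). These day 11 calls and the Dynll1 call rested on single libraries. The Figla call was lost without any 1 of its 4 libraries, with changes of -1.26 to -1.88, and the Lhx8 call without the first Lhx8 library (change -0.58) or either wild-type library (-1.58 and -1.76). The Stat3 call was lost without the second Stat3 library (-1.39), and the Dynll1 call without the first Dynll1 or first wild-type library (-1.80 and -1.78). In the libraries labelled Sub1 knockout Fgf8 had 1.68 and 6.84 TPM, which overlapped wild type (log2 change -0.56 ± 0.64, adjusted p = 0.53).

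**Figure D2:**
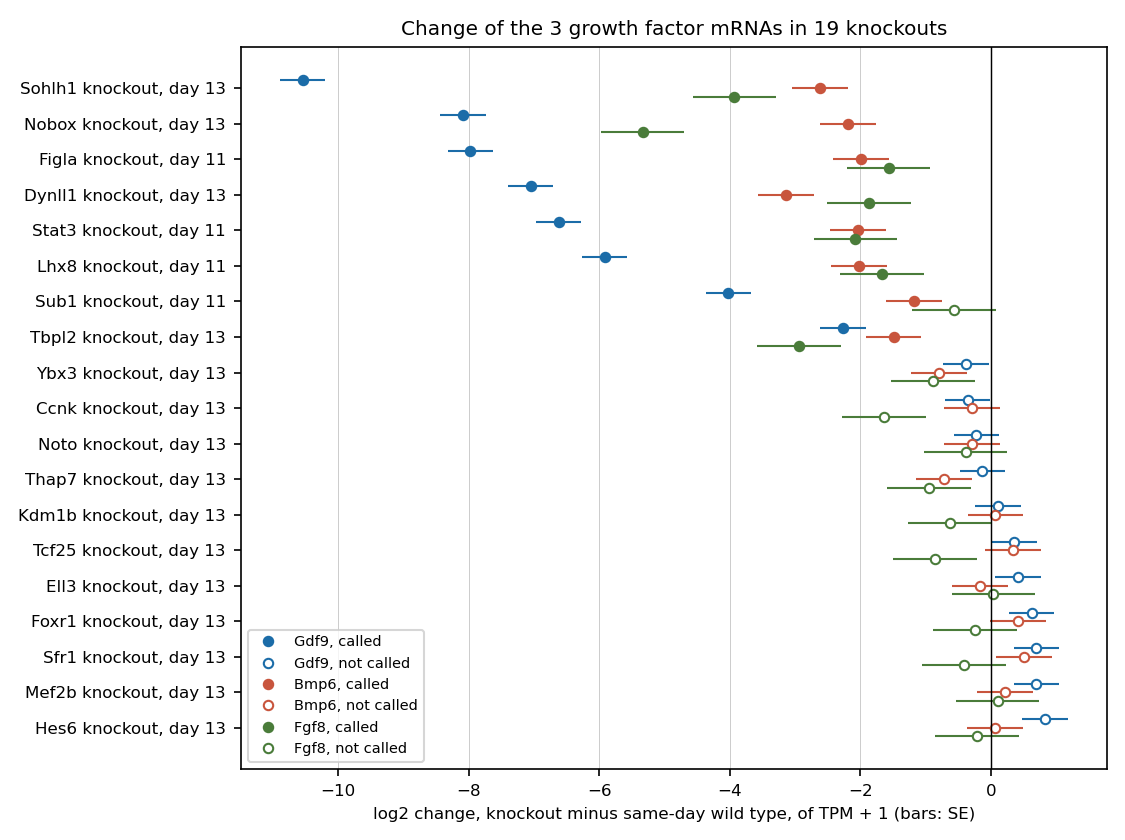
Log2 change of each growth factor mRNA (TPM + 1, knockout minus wild type of the same day, with SE) in 19 knockouts, ordered by Gdf9; filled points were called and open points were not. Gdf9 runs down to -10.54 in the Sohlh1 knockout, and the 8 knockouts at the top hold every called fall; values of groups listed at 0 depend on the 1 added to TPM.

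In the other 11 knockouts none of the factors was called in either direction by limma; at an unadjusted p under 0.05 stood 1 of the 11 for Gdf9, 0 for Bmp6 and 1 for Fgf8. Genes called in either direction there made up 0.593% of those tested in the Hes6, 1.08% in the Mef2b, 1.24% in the Sfr1, 1.88% in the Foxr1, 0.114% in the Ell3, 0.504% in the Tcf25, 3.19% in the Kdm1b, 2.74% in the Thap7, 2.23% in the Noto, 6.14% in the Ccnk and 17.9% in the Ybx3 knockout. Gdf9 differed from wild type by -0.38 to 0.82 on the log2 scale there, with 7 of the 11 means above wild type and 4 below. In all 19 knockouts the Gdf9 values did not overlap those of same-day wild type. Bmp6 values did not overlap in 17 knockouts and Fgf8 values in 15. With 2 libraries per group such gaps can arise by chance, and the share of all genes with them was not computed. A change that was not called does not show an equal level. The highest Gdf9 level was in the Hes6 knockout, which targets a Hes-family gene. It had 3425 and 3431 TPM, against 1976 and 1897 TPM in wild type. The change of 0.82 ± 0.35 did not pass (adjusted p = 0.29). That SE rests on a spread shared over all 42 in vitro libraries, among them the knockouts with little Gdf9. Mef2b, Sfr1 and Foxr1 knockouts followed with means of 3133 ± 17.9, 3128 ± 11.3 and 2979 ± 36.3 TPM of Gdf9 (SD, n = 2 each), and the first 2 of these overlapped each other. Bmp6 differed by -0.79 to 0.50 in the 11 knockouts, with its highest mean in the Sfr1 knockout at 79.8 ± 0.88 TPM, and Fgf8 by -1.64 to 0.10. The lowest of these Fgf8 values was in the libraries labelled Ccnk knockout, at 10.3 and 13.9 TPM, against 41.8 and 37.0 TPM in wild type. The groups did not overlap, and the change of -1.64 ± 0.64 missed the threshold (adjusted p = 0.079); it passed after rescaling of the libraries (-1.93, adjusted p = 0.033), in 1 fit over all samples (adjusted p = 0.026) and without the Sohlh1 libraries (adjusted p = 0.014). Bmp6 in the Ybx3 knockout, at 34.6 and 29.5 TPM against 53.0 and 59.4 TPM in wild type, also passed after rescaling (-1.13, adjusted p = 0.032) but not before (-0.79, adjusted p = 0.17).

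Direct comparisons between knockouts of the same day set the losses against each other. Nobox knockout oocytes had less Gdf9 than Tbpl2 knockout oocytes, with 6.13 and 6.11 TPM against 379 and 423 TPM (log2 change -5.82 ± 0.35, adjusted p = 8.7e-13). Bmp6 did not pass between the same groups (-0.70 ± 0.43, adjusted p = 0.23). Fgf8, at 0 in the Nobox knockout and 6.96 and 2.47 TPM in the Tbpl2 knockout, passed (adjusted p = 0.0048) but not without the first Tbpl2 library (adjusted p = 0.096). The Sohlh1 knockout had less Gdf9 than the Nobox knockout, with 0.70 and 0 TPM against 6.13 and 6.11 TPM (adjusted p = 2.0e-06). Fgf8 went the other way in level, with 6.02 and 0 TPM in the Sohlh1 knockout and 0 in both Nobox libraries, and did not pass (adjusted p = 0.072). The Dynll1 knockout had more Fgf8 than the Nobox knockout, with 9.61 and 10.6 TPM against 0 in both (adjusted p = 9.5e-05). Gdf9 in the same pair stood at 15.8 and 11.7 TPM in the Dynll1 knockout and 6.13 and 6.11 TPM in the Nobox knockout. That change of 1.04 ± 0.35 passed (adjusted p = 0.019) but was lost without the first Dynll1 library (0.84) or either Nobox library (1.04 in both cases). It was also lost after rescaling (0.96) and with 0.1 added to TPM (1.14, adjusted p = 0.14).

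On day 11, Figla knockout oocytes had less Gdf9 than Lhx8 knockout oocytes, with 0.76 and 0.62 TPM against 5.41 and 6.70 TPM (log2 change -2.06 ± 0.35, adjusted p = 6.1e-05). Stat3 and Lhx8 knockouts were not separated (Gdf9 change -0.70 ± 0.35, adjusted p = 0.20). The libraries labelled Sub1 knockout had more Gdf9 than the Lhx8 knockout, with 54.1 and 11.4 TPM against 5.41 and 6.70 TPM (log2 change 1.90 ± 0.35, adjusted p = 0.00051). Without the first Sub1 library that change was 0.82 and no longer called. No Bmp6 difference was called in any of the 6 comparisons, where the adjusted p ran from 0.081 for Dynll1 against Nobox upwards. Genes called lower made up 6.63% for Nobox against Tbpl2, 21.4% for Sohlh1 against Nobox and 3.85% for Figla against Lhx8. Genes called higher made up 11.8% for Dynll1 against Nobox and 3.33% for Sub1 against Lhx8, and 3.85% were called in either direction for Stat3 against Lhx8.

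The balance between the factors shifted with the losses. Gdf9 TPM divided by Bmp6 TPM was 0 to 0.052 in the 2 Sohlh1 knockout libraries, 0.50 to 0.57 in the Nobox knockout and 2.46 to 2.53 in the Dynll1 knockout, against 32.0 to 37.3 in wild type of day 13. In the Tbpl2 knockout the ratio was 20.6 to 21.0. On day 11 it was 0.11 to 0.30 in the Figla knockout, 0.26 to 3.84 in the Stat3 knockout and 1.39 to 1.90 in the Lhx8 knockout, against 18.6 to 29.4 in wild type. In the Sohlh1, Nobox and Figla knockouts Bmp6 mRNA thus exceeded Gdf9 mRNA, which it did in no wild-type library. Other knockouts lay above wild type of day 13, with the highest ratio in Hes6 at 58.4 to 58.6. It was 51.5 to 52.4 in Ell3, 49.6 to 55.6 in Thap7, 48.0 to 48.15 in Mef2b and 43.8 to 49.3 in Ybx3 knockouts. In Sfr1 and Foxr1 knockouts it was 39.0 to 39.4 and 37.5 to 41.9. The Ccnk, Noto, Kdm1b and Tcf25 knockouts overlapped wild type. These ratios were not tested.

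The summed level of the oocyte markers was low in the same knockouts. It was 1051 to 1077 TPM in the Dynll1 knockout, 1180 to 1696 TPM in Sohlh1, 2514 to 2542 TPM in Nobox and 10800 to 10840 TPM in Tbpl2 knockouts, against 57020 to 58380 TPM in wild type of day 13. On day 11 it was 540.4 to 541 TPM in Lhx8, 577 to 629 TPM in Figla, 721 to 733 TPM in Stat3 and 961 to 1013 TPM in Sub1 knockout libraries, against 8130 to 8432 TPM in wild type. Between 6 and 7 of the 8 markers were called lower in each of these 8 knockouts. The exception was Ddx4, a germ cell helicase gene, which was called lower in 0 of the 8 and higher in the Figla, Stat3 and Sub1 knockouts, at 458 ± 24.2, 523 ± 1.21 and 423 ± 17.7 TPM against 209.6 ± 5.84 TPM in wild type of day 11 (SD, n = 2 each). Zar1, a maternal-effect gene, was listed at 0 in the Figla and Sohlh1 knockouts. In the 11 knockouts that kept Gdf9 the sum was at least 31490 TPM. Markers of other cells also moved, in both directions. Summed granulosa markers were 627 to 637 TPM in Nobox and 744 to 813 TPM in Tbpl2 knockouts, against 29.9 to 33.3 TPM in wild type of day 13. They reached 1161 to 1178 TPM in the Ybx3 knockout, where Gdf9 had 1515 and 1453 TPM. On day 11 the granulosa sum was 1285 to 1355 TPM in the Lhx8 knockout, against 859 to 903 TPM in wild type. It lay below wild type in the Figla (835 to 838 TPM), Stat3 (769 to 796 TPM) and Sub1 (708 to 733 TPM) knockout libraries. The 6 stromal and endothelial markers summed to 283 to 291 TPM in Tbpl2, 141 to 154 TPM in Nobox and 91.2 to 92.1 TPM in Dynll1 knockouts, and to 203 and 1851 TPM in the first and second Sohlh1 library, against 10.4 to 16.4 TPM in wild type of day 13. On day 11 that sum was 335 to 373 TPM in Figla, 250.3 to 260.0 TPM in Lhx8, 195 to 211 TPM in Stat3 and 139.6 to 158 TPM in Sub1 knockout libraries, against 76.7 to 100.1 TPM in wild type. Macrophage markers (8) summed to 188.2 TPM in both Dynll1 knockout libraries, against 68.9 to 86.0 TPM in wild type of day 13. In Nobox and Tbpl2 knockouts they summed to less than that wild type, at 37.9 to 53.3 and 26.15 to 30.6 TPM. On day 11 they summed to 300.2 to 326 TPM in Figla, 304 to 307 TPM in Lhx8 and 22.9 to 27.5 TPM in Stat3 knockouts. They summed to 1625 to 1633 TPM in Sub1 knockout libraries, against 23.9 to 43.7 TPM in wild type of day 11, and to 36.8 TPM in the first Sohlh1 library and 2159 TPM in the second. The second Sohlh1 library is also the one in which Gdf9 and Fgf8 were at 0, and the first held 0.70 TPM of Gdf9 and 6.02 TPM of Fgf8. The part of oocyte content and of these other cells in the falls was not tested.

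**Figure D3:**
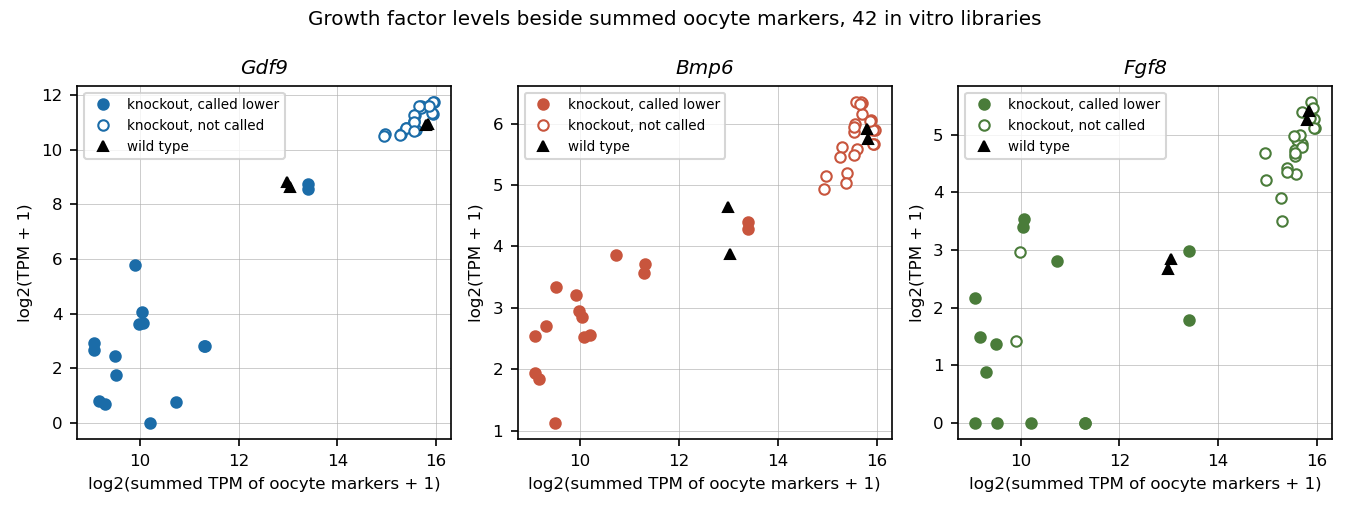
Level of each growth factor mRNA as log2(TPM + 1) against the summed TPM of 8 oocyte markers (log2 scale) in 42 in vitro oocyte libraries; filled circles are knockouts called lower for that factor, open circles the other knockouts, triangles wild type of both days. Libraries in which Gdf9 was called lower have marker sums from 540.4 to 10840 TPM, and the wild type of day 11 lies at 8130 to 8432 TPM with Gdf9 at 400.25 and 448 TPM.

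The neighbouring gene of Gdf9 gives its local setting. Uqcrq, which encodes a respiratory chain subunit, is read from the opposite strand with 191 bases between the genes. It averaged 1771 ± 30.4 TPM in Sohlh1 and 1028 ± 62.7 TPM in Nobox knockout oocytes, against 1291 ± 9.81 TPM in wild type of day 13 (SD, n = 2 each). In the Figla knockout it averaged 644 ± 10.3 TPM, against 1261 ± 6.22 TPM in wild type of day 11. It was also below wild type in the Stat3 and Lhx8 knockouts of day 11, with 629 ± 19.6 and 811 ± 18.3 TPM, and in the Dynll1 knockout of day 13, with 609 ± 13.6 TPM.

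Among transcription factors known to act in early oocytes, Lhx8 and Tbpl2 were called lower in all 8 knockouts in which Gdf9 fell, their own knockouts included, by -8.85 to -1.24 and by -7.73 to -1.69 on the log2 scale. Sohlh1 was called lower in 6 of the 8, its own included. In the Nobox knockout it averaged 795 ± 32.2 TPM, against 909 ± 2.48 TPM in wild type (log2 change -0.19 ± 0.42, adjusted p = 0.74) in the knockout that held 6.13 and 6.11 TPM of Gdf9. Taf4b, a TFIID subunit, was called higher in 7 of the 8. Of the 6 such factors measured, 2 to 4 were called lower and 1 or 2 higher per knockout. Nobox and Figla themselves were not analysed here.

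Of 15 receptor genes for BMP, GDF and FGF ligands 11 were tested, and 1 to 5 were called higher and 1 or 2 lower in each of the 8 knockouts. Genes called higher made up 12.4% to 37.7% of all tested in these comparisons. The receptors' median change was between 0.20 and 0.75, and the median of all genes was between 0.018 and 0.69 over the same comparisons. Bmpr1b, a type I BMP receptor, was called lower in all 8, by -3.38 in the Figla knockout to -1.60 in the Tbpl2 knockout. It averaged 3.81 ± 1.32 TPM in Nobox knockout oocytes, against 32.5 ± 2.06 TPM in wild type (SD, n = 2 each). Fgfr3, an FGF receptor, was called higher in 7 of the 8, with 5.57 ± 2.02 TPM in the Nobox knockout against 0.54 ± 0.35 TPM in wild type (log2 change 2.08 ± 0.51, adjusted p = 0.0011). Of 5 Smads tested, 0 were called lower and at most 2 higher in any of the 8. Antagonists and feedback inhibitors (14 tested) had 1 to 9 called higher and 0 to 4 lower, with median changes of 0.036 to 1.46. In the Nobox knockout Fst, the activin-binding follistatin gene, averaged 13.6 ± 5.79 TPM, against 2.76 ± 0.93 TPM in wild type (log2 change 1.92 ± 0.26, adjusted p = 6.0e-07). Over the 8 knockouts Fst was called higher in 3 and lower in 1. Granulosa cells are a known source of Fst, and the granulosa marker sums of the Nobox knockout are those given above. The part of these cells in the Fst level was not tested.

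Other ligands did not follow the 3 growth factors as a group. Of 16 tested (17 of 23 were among the genes used, and Bmp15, the partner of Gdf9, was not analysed here) 1 to 8 were called higher and 1 to 5 lower per knockout. Their median change was -0.092 to 1.32. Tgfb2 was called lower in 7 of the 8, with 2.40 ± 0.93 TPM in the Nobox knockout against 71.3 ± 5.96 TPM in wild type of day 13 (log2 change -4.44 ± 0.24, adjusted p = 4.3e-14). In the same knockout Bmp7 rose, with 139 ± 0.035 TPM against 9.28 ± 0.78 TPM in wild type (log2 change 3.77 ± 0.24, adjusted p = 6.6e-13). Amh, a granulosa hormone, also rose there (23.2 ± 3.77 TPM against 1.11 ± 0.13 TPM). Over the 8 knockouts Bmp7 was called higher in 4 and lower in 1, and Amh higher in 5 and lower in 0. Genes that respond to these pathways (13 tested) had 0 to 7 called higher and 0 to 5 lower. Id1, a direct BMP-Smad target, averaged 1494 ± 34.4 TPM in the Nobox knockout, against 107 ± 25.2 TPM in wild type (log2 change 3.80 ± 0.18, adjusted p = 2.0e-15). In the Figla knockout Id1 averaged 957 ± 37.0 TPM, against 270.1 ± 15.8 TPM in wild type of day 11 (log2 change 1.82 ± 0.18, adjusted p = 6.5e-09). Over the 8 knockouts Id1 was called higher in 4 and lower in 1, with log2 changes from -2.89 to 3.80. The convertase Pcsk5, the 1 of 4 listed proprotein convertases among the genes used, was called higher in the Nobox knockout (3.10 ± 0.40 TPM against 0.77 ± 0.40 TPM).

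Between the wild-type days 16.5% of all genes tested were called lower. Other ligands had 1 called higher and 5 lower of 16, with a median of -0.37. Bmp2 averaged 0.13 ± 0.071 TPM on day 13, against 17.0 ± 0.40 TPM on day 11 (log2 change -4.00 ± 0.42, adjusted p = 1.9e-08), and Kitl, the granulosa ligand of KIT, 3.81 ± 0.86 TPM against 74.2 ± 19.6 TPM. Receptors had 2 called higher and 2 lower of 11, with a median of -0.28. Bmpr1b rose with the growth factors, to 32.5 ± 2.06 TPM on day 13 against 14.5 ± 1.44 TPM on day 11 (log2 change 1.12 ± 0.29, adjusted p = 0.0033). Antagonists had 4 called lower and 0 higher of 14 (median -0.55). Id1 fell with 2 other target genes, to 107 ± 25.2 TPM on day 13 against 270.1 ± 15.8 TPM on day 11.

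All 3 factors rose in DIOLs.S by day 14, and the day of the first called rise depended, for Fgf8, on the amount added to TPM. Gdf9 had 13.1 and 17.4 TPM on day 1, 95.4 and 72.5 on day 3, 112.7 and 80.35 on day 5, 482 and 736 on day 7 and 6053 and 5685 TPM on day 14. It was called higher already on day 3 against day 1 (log2 change 2.39 ± 0.17, adjusted p = 5.7e-10), not on day 5 against day 3 (0.19 ± 0.17), when no factor was called and 7.95% of genes were called in either direction, and again on day 7 against day 5 and day 14 against day 7. Bmp6 had 3.10 and 5.01 TPM on day 1, 4.19 and 5.43 on day 3, 3.23 and 2.37 on day 5, 9.67 and 9.41 on day 7 and 101.8 and 92.1 TPM on day 14. Its first called rise was on day 7 against day 5 (1.48 ± 0.17, adjusted p = 3.2e-06). Fgf8 had 0.44 and 0.15 TPM on day 1, 0.55 and 0.84 on day 3, 1.55 and 1.99 on day 5, 0.52 and 1.47 on day 7 and 40.9 and 47.4 TPM on day 14. Its only called step was day 14 against day 7 (4.54 ± 0.29, adjusted p = 1.1e-10); with 0.1 added to TPM the steps to day 3 (1.09) and day 5 (1.25) were called as well. From day 1 to day 14 the log2 changes were 8.51 ± 0.17 for Gdf9, 4.30 ± 0.17 for Bmp6 and 5.13 ± 0.29 for Fgf8, all called, beside 16.8% of the 11603 genes tested. Genes called higher were 11.9% on day 3 against day 1, 2.96% on day 7 against day 5 and 7.78% on day 14 against day 7. No test compared the factors with each other in timing, and at levels near 1 TPM a change is understated by the added 1.

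In DIOLs all 3 rose on day 10 against day 5 and again on day 15 against day 10. Gdf9 had 72.75 and 59.9 TPM on day 5, 1307 and 1283 on day 10, 3111 and 2881 on day 15 and 5596 and 5924 TPM on day 25. Bmp6 had 3.51 and 2.33 TPM on day 5, 37.4 and 34.0 on day 10, 100.4 and 96.5 on day 15 and 144 and 136 TPM on day 25. Fgf8 had 2.67 and 1.33 TPM on day 5, 14.75 and 20.0 on day 10, 46.0 and 39.6 on day 15 and 56.1 and 47.5 TPM on day 25. No library of a later day overlapped one of an earlier day. The changes of day 10 against day 5 were 4.27 ± 0.17, 3.24 ± 0.17 and 2.64 ± 0.29 for Gdf9, Bmp6 and Fgf8, all called, beside 3.92% of genes called higher. Those of day 15 against day 10 were 1.21 ± 0.17, 1.44 ± 0.17 and 1.26 ± 0.29, all called, beside 1.12% of genes. The Fgf8 step to day 15 was not called without the first day 15 library (1.16) or the first day 10 library (1.06). On day 25 against day 15 no change reached a log2 of 1 (0.94, 0.50 and 0.27 for Gdf9, Bmp6 and Fgf8), and 7.57% of genes were called in either direction. Over the course from day 5 to day 25 the changes were 6.43 ± 0.17, 5.18 ± 0.17 and 4.17 ± 0.29, beside 10.9% of genes called higher. On day 5, DIOLs.S and DIOLs did not differ by the call rule in any factor (Gdf9 0.52 ± 0.17, Bmp6 -0.038 ± 0.17, Fgf8 -0.083 ± 0.29), beside 11.9% of genes called in either direction.

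**Figure D4:**
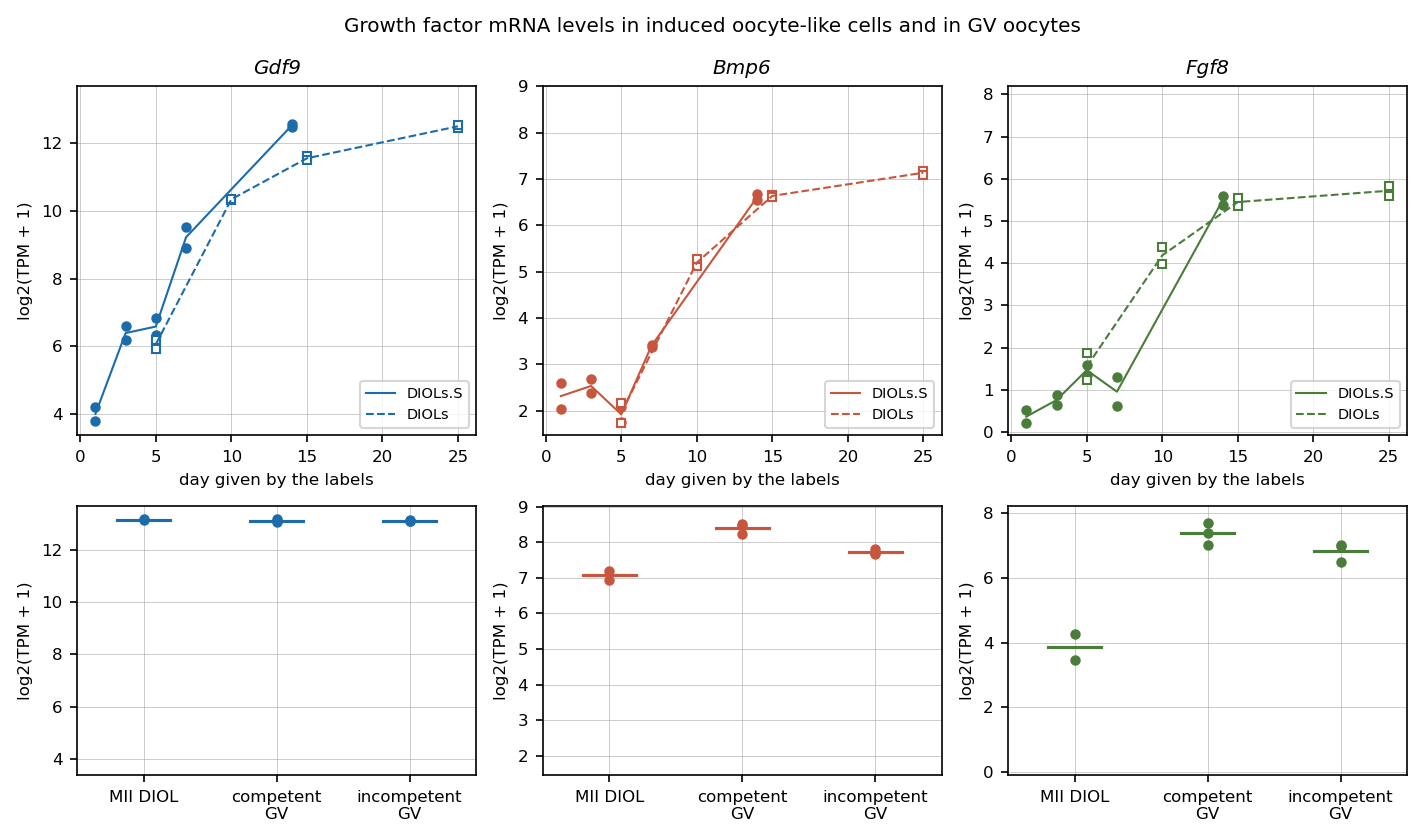
Level of each growth factor mRNA as log2(TPM + 1): above, by day in DIOLs.S (filled points, solid line through the means) and DIOLs (open squares, dashed line), 2 libraries per day; below, on the same scale, in MII DIOLs, comp-GV and incomp-GV oocytes (points are libraries, bars are means). Gdf9 lies at 8622 to 9276 TPM in all 8 libraries below, and Fgf8 in MII DIOLs lies at 18.1 and 9.92 TPM, under every GV library.

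Of the 8 oocyte markers 7 were called higher in DIOLs of day 25 against day 5, and of 9 granulosa markers 1 was called higher and 1 lower. The oocyte marker sum in DIOLs.S was 390 to 434 TPM on day 1, 4001 to 4187 on day 3, 8424 to 9911 on day 5, 19540 to 25300 on day 7 and 78720 to 81840 TPM on day 14. In DIOLs it was 10510 to 10580 TPM on day 5, 39570 to 39620 on day 10, 58520 to 61180 on day 15 and 54720 to 55270 TPM on day 25. Summed granulosa markers in DIOLs were 14.4 to 14.9 TPM on day 5 and 26.9 to 27.2 TPM on day 25, and 438 to 1849 TPM in the 2 DIOLs.S libraries of day 7. Summed stromal and endothelial markers in DIOLs were 306 to 313 TPM on day 5 and 21.0 to 31.7 TPM on day 25, with 4 of 6 called lower. The part of oocyte content and of these other cells in the changes over the course was not tested.

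In DIOLs of day 25 against day 5, 33.4% of all genes tested were called lower. Receptors had 6 called lower and 0 higher of 11, with a median of -1.42, and the median of all genes was -0.50. Bmpr1a, a type I BMP receptor, averaged 20.7 ± 2.28 TPM on day 25, against 79.6 ± 1.82 TPM on day 5 (log2 change -1.90 ± 0.10, adjusted p = 4.8e-12). Smads had 3 called lower of 5, among them Smad5, which transmits BMP signals, with 10.6 ± 0.28 TPM against 43.5 ± 1.53 TPM (-1.94 ± 0.19, adjusted p = 2.2e-08). Antagonists had 6 called lower of 14 (median -0.44), led by Grem1 with 0.16 ± 0.23 TPM against 28.6 ± 0.41 TPM. Target genes had 7 called lower and 0 higher of 13 (median -1.35). Id1 averaged 24.8 ± 4.91 TPM on day 25, against 1026 ± 41.1 TPM on day 5 (log2 change -5.33 ± 0.27, adjusted p = 1.9e-12). Tgfb2 was the ligand outside the 3 factors that rose most, with 75.7 ± 3.63 TPM against 4.88 ± 0.77 TPM (3.71 ± 0.23, adjusted p = 3.3e-11). The other ligands had 2 called higher and 5 lower of 16.

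Matured DIOLs kept Gdf9 and held less Fgf8. Fgf8 had 18.1 and 9.92 TPM in MII DIOLs, against 56.1 and 47.5 TPM in DIOLs of day 25 (log2 change -1.86 ± 0.29, adjusted p = 7.6e-06), and 37.8% of genes were called lower. Gdf9 had 9269 and 9128 TPM in MII DIOLs, against 5596 and 5924 TPM on day 25. Its change of 0.68 ± 0.17 had an adjusted p of 0.0012 and did not reach a log2 of 1. Bmp6 had 145 and 123 TPM in MII DIOLs, against 144 and 136 TPM on day 25, and the groups overlapped (-0.066 ± 0.17, adjusted p = 0.76). These values depend on the scale: rescaling each library by the median of ratios gave 1.66 for Gdf9, which is then called, -0.93 for Fgf8, which is then not, and 0.91 for Bmp6. The median of all genes was -0.39 in this comparison, and the oocyte marker sum was 11780 to 12250 TPM in MII DIOLs against 54720 to 55270 TPM on day 25. Of all genes tested 19.8% were called higher. Receptors had 7 called higher and 0 lower of 11, Tgfbr3 and Acvr1b among them with 72.7 ± 2.26 TPM and 305 ± 11.1 TPM in MII DIOLs against 4.46 ± 0.35 TPM and 25.0 ± 4.62 TPM on day 25. Among target genes, 7 of 13 were called higher. They included Ptgs2, Tnfaip6 and Has2, cumulus expansion genes known to respond to GDF9, of which Has2 averaged 12.1 ± 8.57 TPM in MII DIOLs and was listed at 0 in both DIOL libraries of day 25. Summed granulosa markers were 292 to 500.4 TPM in MII DIOLs against 26.9 to 27.2 TPM on day 25, and their part in these rises was not tested.

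MII DIOLs were then set against oocytes grown in the animal. These groups differ both in origin and in meiotic stage, metaphase II against GV, and the design cannot tell these apart. MII DIOLs had 9269 and 9128 TPM of Gdf9, against 9276, 8622 and 8853 TPM in comp-GV oocytes, and the groups overlapped (0.045 ± 0.15, adjusted p = 0.84). Bmp6 had 145 and 123 TPM in MII DIOLs, against 301.5, 363 and 349 TPM in comp-GV oocytes (-1.33 ± 0.15, adjusted p = 1.2e-07). Fgf8 had 18.1 and 9.92 TPM in MII DIOLs, against 128, 207 and 166 TPM in comp-GV oocytes (-3.51 ± 0.27, adjusted p = 1.8e-10). Both lay under every comp-GV library, beside 31.9% of genes called lower. After rescaling the Gdf9 change was 0.93, still under the fold limit, the Bmp6 change was -0.45 and not called, and the Fgf8 change was -2.67.

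DIOLs.S of day 14 had 6053 and 5685 TPM of Gdf9, against 8852, 8809 and 9113 TPM in incomp-GV oocytes (-0.61 ± 0.15, adjusted p = 0.0019), under the fold limit of the call. Bmp6 had 101.8 and 92.1 TPM in them, against 222, 207 and 202 TPM in incomp-GV oocytes, and fell (-1.11 ± 0.15, adjusted p = 2.6e-06). Fgf8 had 40.9 and 47.4 TPM, against 127, 125 and 88.2 TPM, and fell as well (-1.33 ± 0.27, adjusted p = 0.00022). Of all genes tested 20.2% were called lower. DIOLs of day 25 were under the same incomp-GV libraries in all 3 factors, by -0.63 ± 0.15 for Gdf9, -0.59 ± 0.15 for Bmp6 and -1.10 ± 0.27 for Fgf8. Of these the Fgf8 difference was called (adjusted p = 0.0014), beside 13.5% of genes called lower, and it was -0.98 and not called without the second day 25 library. Both comparisons share the incomp-GV libraries.

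In vitro wild-type oocytes of day 13 were lower than incomp-GV oocytes in all 3 factors, by -2.20 ± 0.27 for Gdf9, -1.89 ± 0.32 for Bmp6 and -1.48 ± 0.49 for Fgf8 (adjusted p = 4.3e-09, 3.2e-06 and 0.010), beside 15.2% of genes called lower. The Fgf8 difference was not called without the second wild-type library (-1.40, adjusted p = 0.068) or with 0.1 added to TPM (adjusted p = 0.23). Between the GV groups no factor was called, beside 9.96% of genes called in either direction. Gdf9 had 9276, 8622 and 8853 TPM in comp-GV oocytes and 8852, 8809 and 9113 TPM in incomp-GV oocytes (-0.0018 ± 0.14, adjusted p = 1.0). Bmp6 had 301.5, 363 and 349 TPM in comp-GV oocytes, against 222, 207 and 202 TPM in incomp-GV oocytes. All 3 comp-GV libraries lay above all incomp-GV libraries, and the change of 0.68 ± 0.14 passed the p threshold (adjusted p = 0.00046) but not the fold limit. Fgf8 had 128, 207 and 166 TPM in comp-GV oocytes, against 127, 125 and 88.2 TPM in incomp-GV oocytes (0.54 ± 0.24, adjusted p = 0.080). Id3, a BMP target, averaged 20.3 ± 5.08 TPM in comp-GV oocytes, against 160.2 ± 8.14 TPM in incomp-GV oocytes (-2.95 ± 0.14, adjusted p = 4.5e-12), and Grem1, a BMP antagonist, 6.35 ± 2.45 TPM against 0.06 ± 0.072 TPM (SD, n = 3 each). Summed granulosa markers were 79.9 to 159.5 TPM in comp-GV oocytes and 69.3 to 77.3 TPM in incomp-GV oocytes, and their part in these differences was not tested.

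Ordered by level, Gdf9 ran from 9198 ± 99.7 TPM in MII DIOLs to 0.35 ± 0.49 TPM in the Sohlh1 knockout. In the 12 DIOL and GV groups, neighbours that overlapped were incomp-GV and comp-GV, DIOLs.S of day 14 and DIOLs of day 25, and DIOLs.S of days 5 and 3 with DIOLs of day 5. Bmp6 ran from 338 ± 32.4 TPM in comp-GV oocytes to 2.80 ± 0.61 TPM in DIOLs.S of day 5, and Fgf8 from 166.6 ± 39.5 TPM in comp-GV oocytes to 0 in the Nobox knockout. The genes most like each factor, by Pearson r over the 21 in vitro group means of log2(TPM + 1), were Zar1 (0.99), Tbpl2, Myot, Fam47e and Gda for Gdf9. For Bmp6 they were Casq2 (0.99), Fam46c, Snx11, Ifit1bl2 and G3bp2, and for Fgf8 Cyp4f39 (0.95), Agpat9, Rasa4, Rspo2 and Adm2. Over these groups, which also differ in oocyte marker level as given above, Gdf9 correlated with Bmp6 at 0.94 and with Fgf8 at 0.91, and Bmp6 with Fgf8 at 0.88. Among 8763 genes Bmp6 ranked 130 and Fgf8 310 in likeness to Gdf9, and Fgf8 ranked 609 in likeness to Bmp6. Many other genes were thus more alike. Over the 12 DIOL and GV group means the leading genes were Klf17 (0.98) for Gdf9, Cd160 (0.98) for Bmp6 and Tmem232 (0.99) for Fgf8. There Gdf9 correlated with Bmp6 at 0.96 and with Fgf8 at 0.90, and Bmp6 with Fgf8 at 0.95. Among 8419 genes Bmp6 ranked 18 and Fgf8 101 in likeness to Gdf9, and Fgf8 ranked 29 in likeness to Bmp6.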

How the data were processed

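The deposited values are TPM per gene symbol; per the submitters' processing notes STAR 2.6.0, featureCounts 1.6.0 and the build mm10 were used. How multi-mapping reads were counted is not given in the sources used here. TPM keeps no depth, so no counting error is given. The table's incomplete last row and 22 rows with date-like names were dropped, leaving 15140 genes; 80 columns of no sample were not used, and 3 primordial follicle samples were not analysed here. GV columns were matched by group.

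Changes come from limma 3.58.1 (trend, robust; R 4.3.3) on log2(TPM + 1), for genes with at least 1 TPM in at least 2 libraries, with Benjamini-Hochberg adjustment over all genes tested per comparison. In vitro libraries (42; 12306 genes; 21 residual degrees of freedom) and DIOL and GV libraries (26; 11603 genes; 14) were fitted apart, and 68 together for wild type of day 13 against incomp-GV (12689 genes). All knockouts of a day share the same 2 wild-type libraries. In each fit a gene's spread was shared over all groups, so an SE is not the spread of the compared groups alone. Where nothing says that replicates came from separate cultures, p-values measure only the spread between libraries. Replicate numbers did not pair samples: correlations of same-numbered deviations ran from -0.13 to 0.023.

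The members and lists were chosen with earlier results of these data known. Named genes are the members, targeted genes, up to 4 called genes per list with the largest change (or 2 of highest level where none was called), list genes called in at least 6 of the 8 knockouts, neighbours of the members, and the 5 genes most correlated with each member among those with a group mean of at least 10 TPM; the neighbours, the genes counted over 8 knockouts and Sohlh1, Bmp7, Amh, Fst and Id1 as examples were chosen after values were seen. Figures were drawn with matplotlib.

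Results were recomputed with 0.1 in place of 1 added to TPM, without the filter, with replicate number as a block, after median-of-ratios rescaling of TPM, in a joint fit of all samples, and without each library in turn. Leaving out both Sohlh1 knockout libraries was added after seeing the data.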

Additional observations from a re-analysis of the deposited data

How the results depend on the processing

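No called change of Gdf9, Bmp6 or Fgf8 turned its direction under the alternatives run. With a pseudocount of 0.1, Fgf8 was called lower in 3 knockouts in place of 7, and its rise in wild type of day 13 against day 11 no longer passed (2.75, adjusted p = 0.11). Over left-out libraries the number of knockouts called lower was 8 for Gdf9, 7 to 8 for Bmp6 and 5 to 8 for Fgf8. The wild-type Bmp6 rise ranged from 1.19 to 1.97 and the Fgf8 difference of DIOLs of day 25 from incomp-GV from -1.27 to -0.98 (from -1.22 to -0.98 over the DIOL libraries alone); this difference was -1.10 but not called in 1 fit over all samples (adjusted p = 0.068). Rescaling by the median of ratios gave 1.66 for Gdf9 and -0.93 for Fgf8 in MII DIOLs against DIOLs of day 25, and -0.89 for Bmp6 in DIOLs.S of day 14 against incomp-GV; the cause was not tested. With the replicate number as a block, which could not include the unnumbered GV libraries, Gdf9 and Bmp6 were called lower in 8 knockouts each and Fgf8 in 6, since Figla missed the threshold (adjusted p = 0.050); with 2 pairs per comparison the numbers share no more than a name. The block changed no other call. TPM are shares of a library, so each change is relative to the rest of its RNA, and with 2 libraries per group 1 library can decide a call at low TPM, as for Fgf8.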
